A study of Mus musculus with 6 samples.

Results

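The genes described here encode the proteins of the mitochondrial ribosome. They are the 77 rows, of 24421 gene symbols in the table, whose symbol is Mrpl or Mrps followed by a number. By symbol, 48 belong to the large subunit (Mrpl) and 29 to the small subunit (Mrps). The rule reads symbols and no measured value, but it was set with earlier results of these data known. The study asked how gene expression responds to G-1, a compound that activates the oestrogen receptor GPER, in pancreatic ductal adenocarcinoma cells.

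The mitochondrial ribosome translates the few messages of the mitochondrial genome, all of which code for subunits of the respiratory chain and the ATP synthase. Its RNAs are made in the mitochondrion, while all of its proteins are encoded in the nucleus, made in the cytosol and imported. Many of these proteins descend from bacterial ribosomal proteins, and others were added in the mitochondrial lineage and have no bacterial counterpart.

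RNA was sequenced from 3 mouse pancreatic ductal adenocarcinoma lines, 6499c4, 6419c5 and 2838c3, at passages 15-20, grown in DMEM with 5% serum. Each line was exposed to 250 nM G-1 or to its solvent DMSO (vehicle) for 16 h, and each line and treatment gave 1 library, so there were 3 G-1 and 3 vehicle libraries. The labels do not say whether libraries came from separate cultures, nor how each line was derived, and all results hold for these lines only. The unit is FPKM, in which a gene's reads are divided by its length and by a scale for the library. Whole reads could be recovered from it, and reads in genes numbered 5480560 to 8927282 per library. A member had a median of 263 to 444 reads, depending on the library, so counting error is a small part of most levels. It is not small beside the median differences between G-1 and vehicle given below. For example, the G-1 to vehicle read ratio of Mrps26 in 2838c3 was 1.25, with a 95% counting interval of 1.06 to 1.48. As a check of the labelled carcinoma cells, the epithelial markers Krt8, Krt18, Krt19, Cdh1 and Epcam summed to 3063 to 5374 FPKM per library, although Epcam alone gave only 0.284 to 5.81 FPKM. The 6 fibroblast markers summed to 0.405 to 1.11 FPKM with Dcn, Lum and Col1a2 at 0, and the 5 leukocyte markers to 0.788 to 3.38 FPKM with Adgre1 at 0. The 3 endothelial markers summed to at most 1.58 FPKM, and the 4 acinar markers to at most 1.86 FPKM with Ptf1a, Amy2a5 and Cpa1 at 0. In bulk RNA, fewer cells of a kind and less RNA per cell cannot be told apart.

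Start regions of some members named in the comparisons are shown first. Promoters of this gene family are known for sites of ETS factors such as GABPA, of NRF1 and of YY1. The stretches were chosen because they hold letters of such sites, and named members without these letters are not shown. RefSeq windows of 300 bases (GRCm38.p6, 250 before and 50 after the start) were held for 68 members, 74 windows in all. The letters searched on both strands were CCGGAAG for ETS factors, GCATGCGC for NRF1 and AAGATGGCG for YY1, which do not overlap each other in the stretches shown. Capitals mark these letters or their reverse complement, and each sequence runs 5′ to 3′ on the gene's strand. The first is the whole stretch between the starts of Mrps27 and its divergent neighbour Ptcd2, and the second lies just before Mrpl43. The others are sites of at most 30 bases.
Mrps27, chr13:99344706-99344785, plus strand: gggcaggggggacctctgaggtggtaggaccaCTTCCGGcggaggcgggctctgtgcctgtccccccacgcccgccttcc
Mrpl43, chr19:45006443-45006552, minus strand: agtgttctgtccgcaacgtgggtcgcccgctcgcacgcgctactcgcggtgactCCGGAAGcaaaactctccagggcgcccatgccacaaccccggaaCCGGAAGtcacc
Mrpl3, chr9:105053238-105053267, plus strand: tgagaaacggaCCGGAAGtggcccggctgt
Mrpl33, chr5:31613933-31613962, plus strand: gaacccGCGCATGCcCCGGAAGtagtcgtt
Mrps18a, chr17:46110966-46110995, plus strand: cacacccctgctCCGGAAGcggaagtgcac
Mrps26, chr2:130563731-130563760, plus strand: gctccgcggccaCTTCCGGgccgggcgcag
Mrpl57, chr14:57826231-57826260, plus strand: gccccagagagaCCGGAAGcagcgcgccgc
Mrpl39, chr16:84735350-84735379, minus strand: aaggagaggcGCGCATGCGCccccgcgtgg
Mrpl36, chr13:73330967-73330996, plus strand: acgtgaccttaCGCCATCTTtcttcctggc
Mrps24, chr11:5707652-5707676, minus strand: cgcgccggcccAAGATGGCGtggtc
The ETS letters are in the Mrps27, Mrpl43, Mrpl3, Mrpl33, Mrps18a, Mrps26 and Mrpl57 stretches, and Mrpl43 holds them at 2 places. The NRF1 letters are in the Mrpl33 and Mrpl39 stretches, where Mrpl39 holds them on both strands at overlapping places. The YY1 letters are in the Mrpl36 and Mrps24 stretches. The windows of Mrps27 and Mrps18a hold the YY1 letters too, outside the stretches shown.

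Across the family, the ETS letters were in 33.8% of the members' windows, against 18.9% of the 10532 windows of tested genes and 8.86% of all 32851 windows. The NRF1 letters were in 10.8% of the members' windows, 5.55% of those of tested genes and 2.71% of all. The YY1 letters were in 10.8%, 3.28% and 1.40% of the same 3 sets. Of the other letters searched, TGACGTCA (a cAMP response element) was in 2.70% of the members' windows against 3.23% of those of tested genes and 1.79% of all. CACGTG (an E-box) was in 9.46%, 10.4% and 7.15%, and ACTACAA (ZNF143) in 6.76%, 4.32% and 3.24%. These shares describe sequence only, and no binding was measured. Genes of the family also often start beside another gene. In GENCODE vM21, 33 members (42.9%) had a protein-coding start on the opposite strand within 1000 bp, against 1784 of 10080 tested protein-coding genes (17.7%). Pairs that overlap were counted as well as pairs that point away from each other. Mrpl46 and Mrps11, on chromosome 7, are each other's neighbour in this way, and their exons overlap. An exon was shared with another protein-coding gene by 23 members, and 15 had a copy of at least 200 bp at 97% identity or more elsewhere, such as Mrps36-ps1 for Mrps36. The sources used here do not say whether reads were assigned with regard to strand, so the values of these members are less certain.

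All 77 members were expressed. Each passed the filter of a mean of at least 1 FPKM over the 6 libraries, and 75 had a mean of at least 5 FPKM. The members' median level was 39.9 FPKM, against 13.5 FPKM over the 10748 genes tested. It lay below that of 76 nuclear genes of the respiratory chain and ATP synthase, at 101 FPKM, and far below that of 81 genes of the cytosolic ribosome, at 511 FPKM. In all, the members took 0.319% to 0.493% of the reads. Most levels lay close together: 56 members averaged between 20 and 100 FPKM, 7 more than 100 FPKM and 14 less than 20 FPKM.

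The highest level belonged to Mrpl12, a protein of the stalk of the large subunit that also binds the mitochondrial RNA polymerase in human cells. Mrpl12 had 194 and 164 FPKM in the G-1 and vehicle libraries of 6499c4, 135 and 118 FPKM in those of 6419c5 and 126 and 98.3 FPKM in those of 2838c3. Its levels in 6499c4 lay above all 4 other libraries. Mrpl13, a homologue of a bacterial large subunit protein, had 130.0 and 136 FPKM in the G-1 and vehicle libraries of 6499c4, 112 and 113 FPKM in 6419c5 and 124 and 119 FPKM in 2838c3, a narrow range. Mrpl42, which has no bacterial counterpart, had 147 and 125, 121 and 107 and 91.7 and 97.4 FPKM in the G-1 and vehicle libraries of the same 3 lines. Mrpl30, a homologue of a bacterial large subunit protein, had 141 and 122 FPKM in 6499c4, 105 and 106 FPKM in 6419c5 and 100.2 and 109 FPKM in 2838c3, again G-1 before vehicle. For Mrpl42 and Mrpl30 both libraries of 6499c4 were above those of the other lines.

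The lowest level was that of Mrps36, which despite its symbol is absent from structures of the ribosome and is known in human cells as a part of the alpha-ketoglutarate dehydrogenase complex. Mrps36 had 8.19 and 2.898 FPKM in the G-1 and vehicle libraries of 6499c4, 2.05 and 3.52 FPKM in 6419c5 and 2.62 and 5.06 FPKM in 2838c3, from 8 to 47 reads. These values overlap between all lines, and the gene has pseudogene copies. Mrpl23, whose protein sits near the exit of the peptide tunnel, had 4.91 FPKM on average from a recovered 4 to 10 reads. The gene length these reads imply is 194 bp, shorter than its annotated transcripts, so its reads and its level are uncertain. Mrps33, a small subunit protein with no bacterial counterpart, had 6.402 and 8.62 FPKM in 6499c4, 5.94 and 8.38 FPKM in 6419c5 and 8.91 and 4.999 FPKM in 2838c3. Mrpl41, a large subunit protein with no bacterial counterpart, averaged 7.22 FPKM. The length behind its FPKM was 2423 bp, where the closest annotated transcript has 776 bp, so its place among the lowest levels is uncertain too. In all, 8 members had a length more than 1.5-fold away from their closest transcript.

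**Figure D1:**
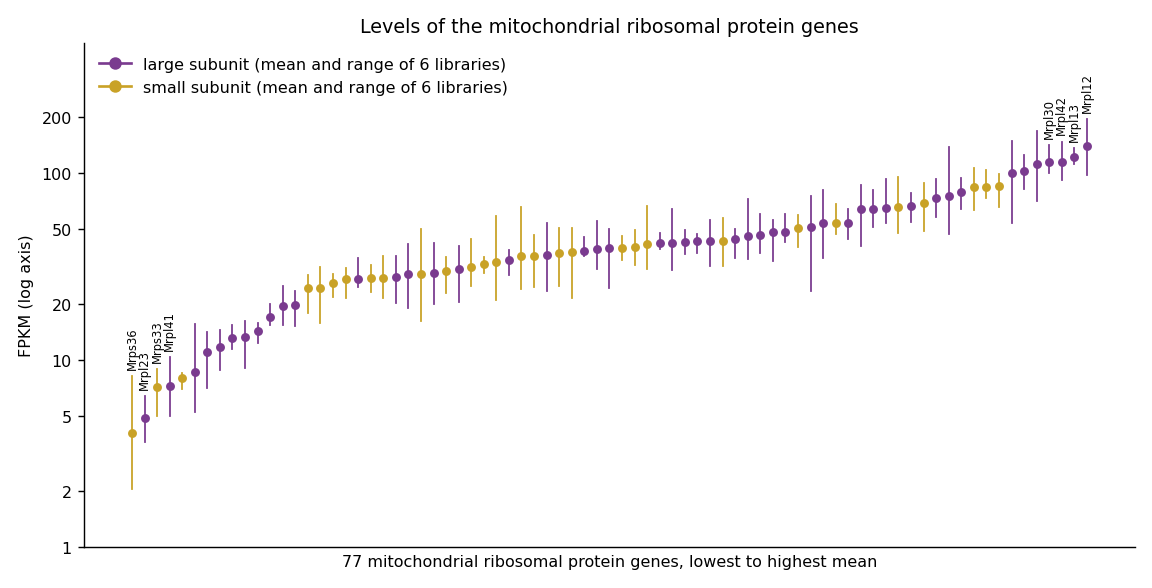
Each point is the mean FPKM (log axis) of 1 gene over the 6 libraries, each line its range, with genes ordered from lowest to highest mean and coloured by subunit. Means span 4.06 to 139 FPKM, a 34.3-fold range, and the 8 labelled genes are the 4 highest and 4 lowest.

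Large subunit genes were a little higher than small subunit genes in 5 of 6 libraries. The medians were 43.0 FPKM over 48 large subunit genes and 36.1 FPKM over 29 small subunit genes, a ratio of 1.19. Within libraries the ratio of medians was 0.956 (G-1) and 1.06 (vehicle) in 6499c4, 1.295 and 1.17 in 6419c5, and 1.24 and 1.25 in 2838c3. On the log2(FPKM + 1) scale the medians of the subunits differed by 0.25, and by 0.36 without 6499c4, 0.28 without 6419c5 and 0.075 without 2838c3. In the ribosome structures the products of Mrps30 and Mrps18a lie in the large subunit, and with this assignment and Mrps36 left out the ratio was again 1.19.

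The lines differed more than the treatments. In 6499c4, 46 of 77 members were higher than in 2838c3 and 5 were lower (limma, adjusted p under 0.05), where 26.6% of all genes tested were called higher and 28.9% lower, or 55.6% either way. In 6419c5, 33 members were higher than in 2838c3 and 10 lower, against 26.2% and 25.3% of all genes and 51.5% either way. In 6499c4, 23 members were higher than in 6419c5 and 7 lower, against 21.3% and 23.7% of all genes and 45.0% either way. With quantile scaling these counts were 40 higher and 6 lower, where 4964 of the 10748 genes tested were called either way. The shares of members called higher were 59.7%, 42.9% and 29.9% in these 3 comparisons. Each line rests on 2 libraries of different treatment, and p-values measure the spread between these libraries, which may be technical.

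The members' median log2 difference was 0.36 for 6499c4 against 2838c3, 0.19 for 6419c5 against 2838c3 and 0.18 for 6499c4 against 6419c5, while the medians over all genes were -0.0051, 0.00058 and 0.0060. Both subunits took part. Against 2838c3, 27 of 48 large subunit genes were higher in 6499c4 and 3 lower, with a median of 0.34, and 19 of 29 small subunit genes were higher and 2 lower, with a median of 0.36. For 6419c5 against 2838c3 the counts were 20 higher and 9 lower in the large subunit and 13 higher and 1 lower in the small subunit, with medians of 0.19 in both. For 6499c4 against 6419c5 they were 17 higher and 6 lower, and 6 higher and 1 lower, with medians of 0.18 in both. A difference between the subunits was not tested. Mrpl53, Mrpl9 and Mrps14 were among the members that no line comparison called.

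Gene length moved with these differences. The members are short, with a median length of 1053 bp against 2879 bp over all genes tested, and 57 of the 77 fell in the shortest quintile of genes, up to 1577 bp. Over all genes in that quintile the median log2 difference was 0.27 for 6499c4 against 2838c3, 0.14 for 6419c5 against 2838c3 and 0.16 for 6499c4 against 6419c5, and over the 57 members in it 0.36, 0.19 and 0.26. Each library was then corrected for GC content and length. The members' medians became 0.11, 0.0011 and 0.15, beside -0.021, -0.052 and 0.048 over all genes. The calls were then 26 higher and 10 lower for 6499c4 against 2838c3 (25.7% and 29.7% of all genes), 23 and 16 for 6419c5 against 2838c3 (24.0% and 29.6%), and 21 and 11 for 6499c4 against 6419c5 (24.6% and 22.4%). As shares of the 77 members these were 33.8% and 12.99%, 29.9% and 20.8%, and 27.3% and 14.3%. Without the G-1 library of 6419c5, 16 of 77 members (20.8%) were called for 6499c4 against 6419c5, against 24.3% of all genes, and 28 of 77 (36.4%) for 6419c5 against 2838c3, against 33.4% of all genes. That library had the fewest reads.

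**Figure D2:**
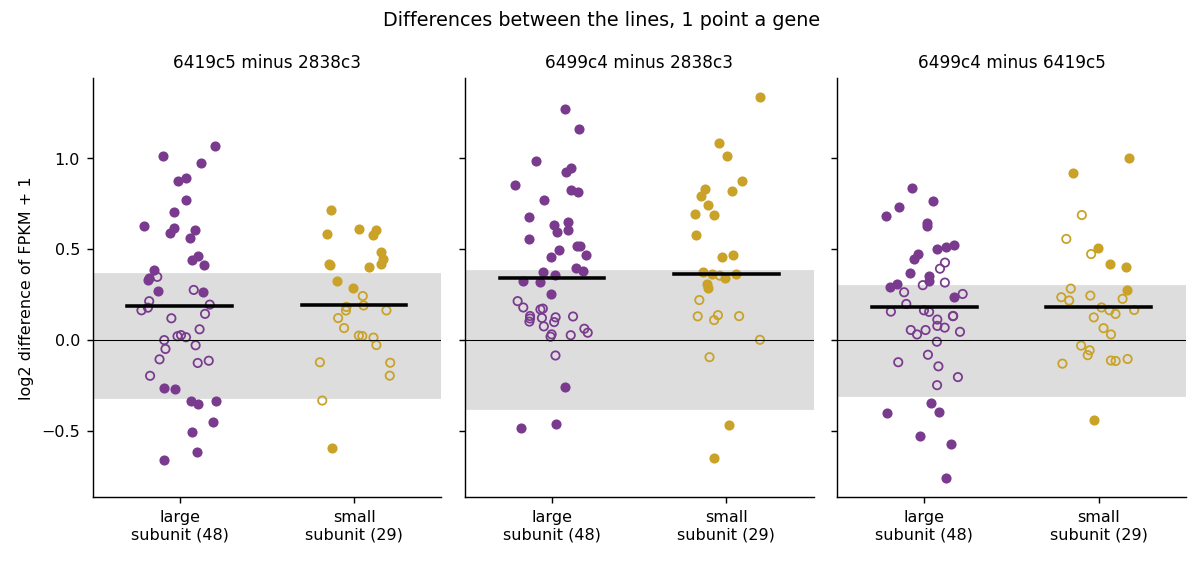
Points are the log2 differences of FPKM + 1 of single genes between lines, by subunit, filled where the adjusted p was under 0.05, with bars at the median and grey bands from the lower to the upper quartile of all genes tested. The subunit medians are 0.34 and 0.36 for 6499c4 minus 2838c3, and the subunit medians of all 3 comparisons are above 0.

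Some members were called in 1 line against both others. Of the 77 members, 27 (35.1%) were lower in 2838c3 than in both other lines, against 15.0% of all genes, and 4 (5.19%) were higher, against 16.1%. In 6499c4, 18 members (23.4%) were higher than in both others, against 12.0% of all genes, and 1 (1.299%) was lower, against 13.9%. In 6419c5, 6 members were higher (7.79%) and 6 lower (7.79%), against 11.2% and 8.51% of all genes.

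Lowest in 2838c3 relative to the other lines were Mrpl54, Mrpl33, Mrpl38 and Mrpl2. Mrpl54, a large subunit protein with no bacterial counterpart, had 75.4 and 62.5 FPKM in the G-1 and vehicle libraries of 6499c4, 59.1 and 55.1 FPKM in 6419c5 and 33.1 and 23.3 FPKM in 2838c3. Both libraries of 2838c3 lay below all others, with log2 differences from 2838c3 of 1.27 ± 0.10 (SE; adjusted p = 5.84e-05, limma) for 6499c4 and 1.01 ± 0.10 (adjusted p = 0.000216) for 6419c5. Mrpl33, a small protein of bacterial descent whose start region holds the ETS and NRF1 letters side by side, had 149 and 119 FPKM in 6499c4, 109 and 108 FPKM in 6419c5 and 63.9 and 54.2 FPKM in 2838c3. Every library of 2838c3 lay below all others, and the differences were 1.16 and 0.87. Mrpl38, which in human ribosomes lies in the central protuberance of the large subunit, had 45.1 and 45.7 FPKM in 6499c4, 49.99 and 49.1 FPKM in 6419c5 and 25.1 and 24.4 FPKM in 2838c3, with differences of 0.85 and 0.98. Mrpl2, of bacterial descent and close to the catalytic centre, had 85.9 and 73.8 FPKM in 6499c4, 77.9 and 65.4 FPKM in 6419c5 and 42.3 and 40.5 FPKM in 2838c3. The calls of these 4 genes against 2838c3 held without any single library and after the correction for GC content and length.

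Only 4 members were higher in 2838c3 than in both other lines. Mrps27, a pentatricopeptide repeat protein of the small subunit, had 24.8 and 27.1 FPKM in 6499c4, 26.8 and 27.2 FPKM in 6419c5 and 44.4 and 38.4 FPKM in 2838c3. Its log2 differences from 2838c3 were -0.65 ± 0.099 (SE; adjusted p = 0.00117, limma) for 6499c4 and -0.59 ± 0.099 (adjusted p = 0.00219) for 6419c5. Mrpl11, of the base of the stalk to which translation factors bind, had 17.6 and 17.3 FPKM in 6499c4, 16.3 and 15.4 FPKM in 6419c5 and 24.8 and 24.9 FPKM in 2838c3. Mrpl3, a protein of bacterial descent near the catalytic centre, had 43.3 and 43.01 FPKM in 6499c4, 37.6 and 37.4 FPKM in 6419c5 and 60.2 and 59.7 FPKM in 2838c3. G-1 and vehicle values of Mrpl3 were almost equal in every line, and its differences from 2838c3 were -0.47 and -0.66. Mrpl49, with no bacterial counterpart, had 48.02 and 44.6 FPKM in 6499c4, 42.8 and 44.9 FPKM in 6419c5 and 60.1 and 51.6 FPKM in 2838c3. Its call is less firm: without the G-1 library of 2838c3 the adjusted p was 0.304 for 6499c4 and 0.152 for 6419c5. Leaving out the G-1 or the vehicle library of 6499c4 gave 0.105 and 0.138, and leaving out the G-1 library of 6419c5 gave 0.136. Mrps27 and Mrpl3 hold the ETS letters in their start regions, as does Mrpl33, which differed the other way.

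In 6419c5, Mrpl39, Mrpl40, Mrpl47 and Mrpl24 stood above both other lines. Mrpl39, related in sequence to threonyl-tRNA synthetases, had 37.9 and 32.1 FPKM in the G-1 and vehicle libraries of 6499c4, 63.9 and 56.1 FPKM in 6419c5 and 33.4 and 30.3 FPKM in 2838c3. Its log2 difference was 0.89 ± 0.076 (SE; adjusted p = 0.000111, limma) for 6419c5 against 2838c3 and -0.76 ± 0.076 (adjusted p = 0.000234) for 6499c4 against 6419c5. Mrpl40, which like Mrpl38 belongs to the central protuberance, had 55.4 and 45.4 FPKM in 6499c4, 81.5 and 69.7 FPKM in 6419c5 and 35.7 and 35.004 FPKM in 2838c3. All 3 lines were separate for Mrpl40, with 2838c3 lowest. Mrpl47, of bacterial descent, had 36.3 and 33.6 FPKM in 6499c4, 55.4 and 46.6 FPKM in 6419c5 and 30.8 and 34.4 FPKM in 2838c3. Mrpl24, also of bacterial descent, had 64.3 and 57.1 FPKM in 6499c4, 81.7 and 79.2 FPKM in 6419c5 and 51.5 and 52.7 FPKM in 2838c3. For 6499c4 against 6419c5 the adjusted p of Mrpl47 was 0.0818 without the G-1 library of 6419c5, and that of Mrpl24 was 0.0526 without its vehicle library.

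The 4 members furthest below both other lines in 6419c5 were Mrpl36, Mrpl4, Mrpl21 and Mrpl16, all of bacterial descent. Mrpl36 had 40.7 and 32.8 FPKM in the G-1 and vehicle libraries of 6499c4, 24.4 and 20.5 FPKM in 6419c5 and 35.5 and 29.4 FPKM in 2838c3. Its log2 difference was 0.68 ± 0.078 (SE; adjusted p = 0.000444, limma) for 6499c4 against 6419c5 and -0.51 ± 0.078 (adjusted p = 0.00148) for 6419c5 against 2838c3. Mrpl4, which lines the peptide tunnel, had 42.1 and 33.9 FPKM in 6499c4, 21.6 and 19.9 FPKM in 6419c5 and 30.7 and 26.9 FPKM in 2838c3. Mrpl21 had 64.2 and 59.7 FPKM in 6499c4, 44.4 and 44.2 FPKM in 6419c5 and 56.9 and 56.8 FPKM in 2838c3. Mrpl16 had 50.04 and 46.4 FPKM in 6499c4, 35.1 and 39.2 FPKM in 6419c5 and 45.6 and 48.9 FPKM in 2838c3. Both libraries of 6419c5 were the lowest for each of these 4 genes. The calls of Mrpl21 and Mrpl16 for 6419c5 against 2838c3 were less firm: without the G-1 library of 6419c5 the adjusted p was 0.0525 for Mrpl21 and 0.133 for Mrpl16, and without the vehicle library of 2838c3 it was 0.0544 and 0.105. For Mrpl16 it was also 0.0547 without the G-1 library of 2838c3. For 6499c4 against 6419c5, Mrpl16 had 0.123 and 0.106 without the G-1 library of 6419c5 or of 6499c4.

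In 6499c4, Mrps34, Mrps24, Mrpl57 and Mrpl28 were furthest above both other lines. Mrps24, of the small subunit near the site where messages enter in bacterial ribosomes, had 50.3 and 41.1 FPKM in the G-1 and vehicle libraries of 6499c4, 23.9 and 23.2 FPKM in 6419c5 and 18.6 and 16.2 FPKM in 2838c3. The log2 difference of 1.34 ± 0.092 (SE; adjusted p = 3.00e-05, limma) for 6499c4 against 2838c3 was the largest of any member, and against 6419c5 it was 0.92 ± 0.092 (adjusted p = 0.000241). Mrps34, a small subunit protein with no bacterial counterpart, had 65.97 and 44.5 FPKM in 6499c4, 24.1 and 29.2 FPKM in 6419c5 and 25.1 and 27.6 FPKM in 2838c3. The G-1 library of 6499c4 was high even among the libraries of its line, and without the G-1 library of 6419c5 the adjusted p for 6499c4 against 6419c5 was 0.0688. Mrps34 shares exons with Nme3 and Mapk8ip3, and Mrps24 with Urgcp, so reads of these neighbours may be in their values. Mrpl28, of bacterial descent, had 168 and 147 FPKM in 6499c4, 103 and 98.2 FPKM in 6419c5 and 88.4 and 70.9 FPKM in 2838c3. Mrpl57, with no bacterial counterpart, had 15.6 and 9.505 FPKM in 6499c4, 7.76 and 5.91 FPKM in 6419c5 and 7.88 and 5.29 FPKM in 2838c3, so both libraries of 6499c4 were the highest. Mrps2, of bacterial descent, was the single member lower in 6499c4 than in both others, with 17.9 and 20.8 FPKM in 6499c4, 26.7 and 26.4 FPKM in 6419c5 and 25.6 and 28.6 FPKM in 2838c3. Its adjusted p for 6499c4 against 6419c5 was 0.0799 without the G-1 library of 6419c5 and 0.0564 without that of 6499c4.

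**Figure D3:**
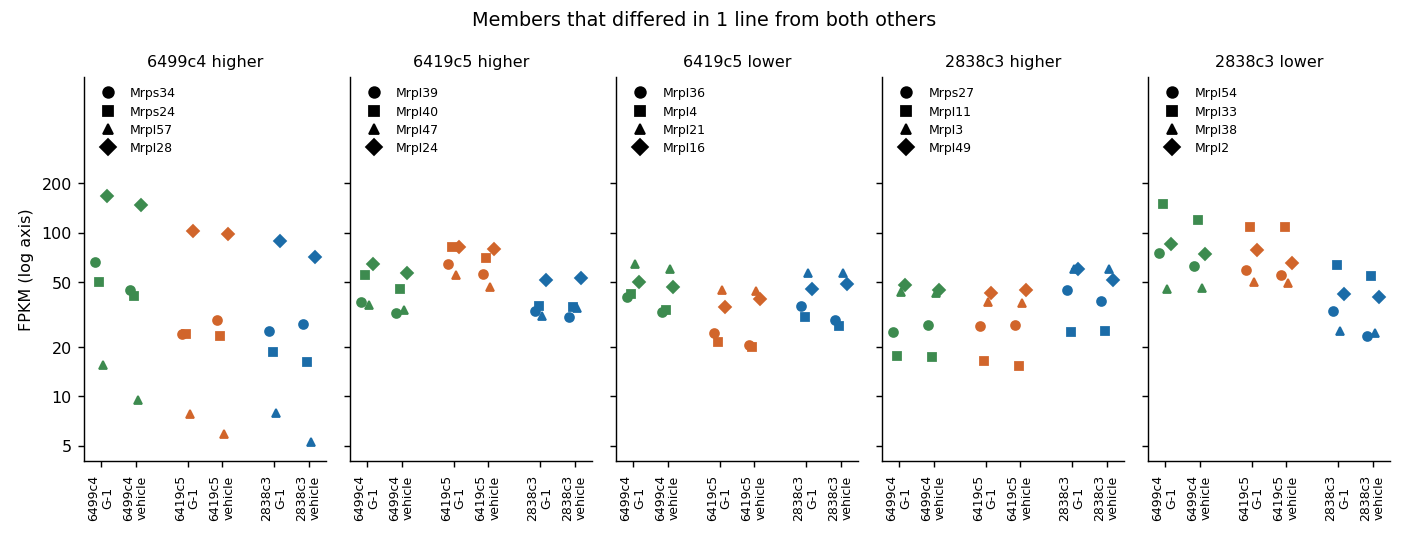
Points are FPKM (log axis) in each of the 6 libraries, coloured by line, for up to 4 members in each panel that were called in 1 line against both others. In the panel of members lower in 2838c3, Mrpl54 sits at 33.1 and 23.3 FPKM in 2838c3 and above 50 FPKM elsewhere.

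Mrps18a, Mrps18b and Mrps18c descend from a single bacterial protein, and structures place the first in the large subunit and the others in the small. Mrps18a had 107 and 106 FPKM in the G-1 and vehicle libraries of 6499c4, 80.2 and 80.4 FPKM in 6419c5 and 67.8 and 63.3 FPKM in 2838c3. Mrps18c, the closest to the bacterial form, had 95.9 and 76.6 FPKM in 6499c4, 66.96 and 61.1 FPKM in 6419c5 and 48.1 and 48.2 FPKM in 2838c3. Mrps18b had 51.3 and 57.04 FPKM in 6499c4, 54.9 and 59.96 FPKM in 6419c5 and 43.7 and 40.1 FPKM in 2838c3. All 3 were lowest in 2838c3, with log2 differences from it of 0.69, 0.82 and 0.36 for 6499c4 and 0.29, 0.40 and 0.45 for 6419c5, each with an adjusted p under 0.05 in limma. Against 6419c5, Mrps18a and Mrps18c were higher in 6499c4 by 0.40 and 0.42, while Mrps18b differed by -0.084 (adjusted p = 0.473). After the correction for GC content and length the calls of all 3 for 6419c5 against 2838c3 and that of Mrps18b for 6499c4 against 2838c3 were lost. Leaving out 1 library also lost calls: without the vehicle library of 6419c5 the adjusted p for 6419c5 against 2838c3 was 0.0861 for Mrps18a, 0.079 for Mrps18c and 0.0663 for Mrps18b. For 6499c4 against 6419c5, Mrps18c had 0.0701 without the G-1 library of 6499c4, and 0.0852 and 0.0664 without the G-1 or the vehicle library of 6419c5. For 6499c4 against 2838c3, Mrps18b had 0.0826 without the vehicle library of 6499c4 and 0.128 without that of 2838c3. For Mrpl12, the stalk protein described above, the difference was 0.68 ± 0.071 (SE; adjusted p = 0.000209, limma) for 6499c4 against 2838c3 and 0.50 ± 0.071 (adjusted p = 0.00126) for 6499c4 against 6419c5, and 0.18 (adjusted p = 0.0722) for 6419c5 against 2838c3.

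On some chromosomes the members differed between lines in the same direction as the other genes there, and 4 such chromosomes chosen after their values were seen are given. On others, also chosen so, they did not. For 6499c4 against 2838c3, the 3 members on chromosome 14 had a median log2 difference of 0.60 and its 350 tested genes -0.38. The 2 members on chromosome 8 had 0.43 and its 594 tested genes -0.37. The 77 members lie on 17 chromosomes of GRCm38. On chromosome 16, Mrpl40, Mrpl39 and Mrps6 were all higher in 6419c5 than in 2838c3, with a median log2 difference of 0.89, where the 337 tested genes of that chromosome had 0.62 and 78.9% of them were called higher. For 6499c4 against 6419c5 the same 3 members had a median of -0.58 and the chromosome's genes -0.73. On chromosome 19, all 5 members (Mrpl21, Mrpl11, Mrpl49, Mrpl16 and Mrpl43) were lower in 6419c5 than in 2838c3, with a median of -0.34 against -0.32 for the chromosome's 371 genes, of which 53.1% were called lower. On chromosome 11, all 10 members were higher in 6499c4 than in 2838c3, with a median of 0.76 against 0.40 for 871 genes, of which 55.6% were called higher. Mrps24, Mrpl38 and Mrpl12 are among these members. On chromosome 17, all 8 members, the genes Mrps34, Mrpl28, Mrpl2, Mrps18a and Mrps18b among them, were called higher in 6499c4 than in 2838c3, with a median of 0.69 against 0.24 for 530 genes, of which 40.8% were called higher.

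Across the 77 members, the difference of a member and the median difference of all genes on its chromosome had a Pearson correlation of 0.54 for 6499c4 against 2838c3, 0.70 for 6419c5 against 2838c3 and 0.58 for 6499c4 against 6419c5. Members on 1 chromosome share its median, so these values are descriptions. Subtracting the chromosome's median brought the SD among members to 0.34, 0.28 and 0.28 in the same order, where it had been 0.41, 0.39 and 0.35. The members' medians stayed at 0.37, 0.20 and 0.14, with 71, 58 and 58 of 77 members above 0. For G-1 against vehicle no such relation was seen, with a correlation of 0.051, and the chromosome medians lay between -0.029 and 0.022. Copy number was not measured, and its part in these differences was not tested.

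**Figure D4:**
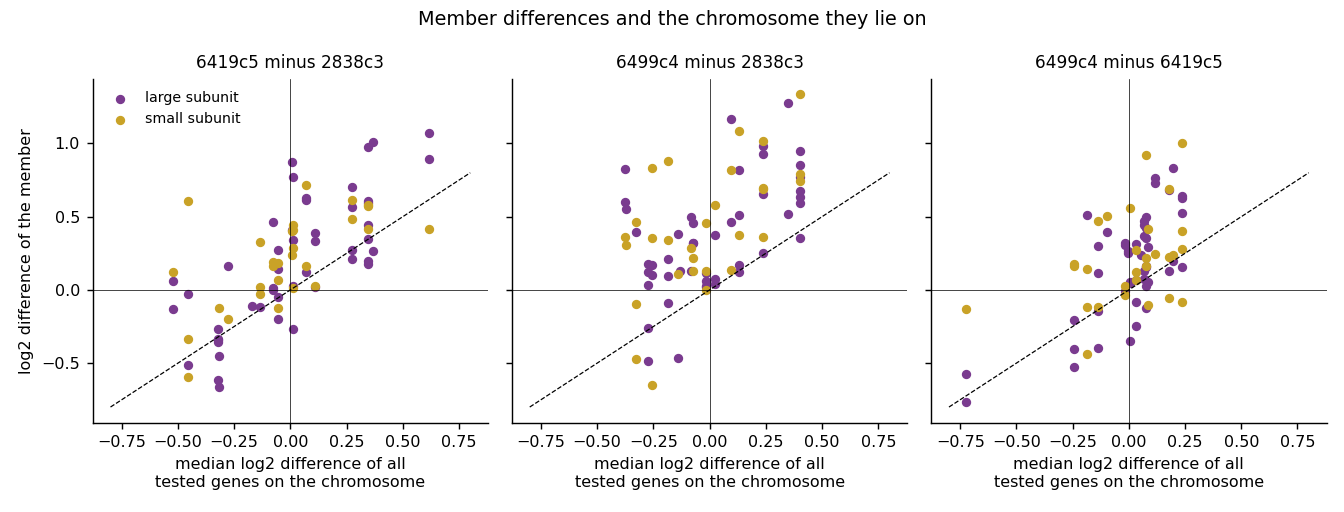
Each point is 1 member, its log2 difference between lines on the vertical axis and the median log2 difference of all tested genes on its chromosome on the horizontal axis. The dashed line marks equality. Members with higher differences tend to lie on chromosomes with higher medians, with correlations of 0.70, 0.54 and 0.58 from left to right.

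No member passed the test for G-1 against vehicle. In limma, 0 of 77 members had an adjusted p under 0.05, where 0.0279% of all genes were called. The smallest adjusted p was 0.216, for Mrps26. At an unadjusted p under 0.05 there were 22 members, all higher with G-1 (28.6% of the members, against 10.1% of all genes in either direction). The median log2 difference was 0.072 over the members and -0.0063 over all genes. In limma-voom on the recovered reads, 5 members passed the threshold, each with a fitted difference above 0, where 1.06% of all genes were called higher: Mrpl57 (adjusted p = 0.0176), Mrpl52 (0.0288), Mrpl12 (0.0393), Mrps26 (0.0402) and Mrpl43 (0.0458). Mrpl52 was not higher in every line: it had 139, 70.9 and 61.4 FPKM in the G-1 libraries of 6499c4, 6419c5 and 2838c3, against 67.3, 47.2 and 65.2 FPKM in the vehicle libraries. With the correction for GC content and length in limma-voom, 1 of the 77 members, Mrpl57, passed, where 48 of 10368 genes were called in either direction.

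By line, the members' median difference between G-1 and vehicle was 0.19 in 6499c4, 0.065 in 6419c5 and 0.041 in 2838c3, and 59, 54 and 49 of 77 members were above 0. After the correction for GC content and length the medians were 0.061, 0.059 and 0.0086, with 50, 50 and 40 of 77 members above 0. The pooled median was then 0.030, with 0.056 over the large and -0.0076 over the small subunit. Before the correction, the pooled median was 0.043 without 6499c4, 0.13 without 6419c5 and 0.11 without 2838c3. Also before the correction, 30 members (39.0%) were higher in all 3 lines and 2 (2.60%) lower, against 15.4% and 17.5% of all genes, which are mostly longer. Of these, 22 and 1 were of the large subunit and 8 and 1 of the small. For the shortest quintile of all genes the median was 0.079, and over the 57 members in that quintile 0.11. Before the correction, genes of the cytosolic ribosome and of the respiratory chain had medians of 0.075 and 0.11. A small positive value was thus not limited to the mitochondrial ribosome. After the correction their medians were -0.013 and 0.026, beside 0.030 over the members and -0.0030 over all genes.

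The 5 members with the steadiest higher values with G-1 over the lines were Mrpl41, Mrpl57, Mrps26, Mrpl43 and Mrpl36. Mrpl41 had 10.3, 7.05 and 7.69 FPKM in the G-1 libraries of 6499c4, 6419c5 and 2838c3, against 7.66, 5.03 and 5.55 FPKM in their vehicle libraries. Its difference was 0.41 ± 0.093 (SE, n = 3 lines; adjusted p = 0.3 in limma). Mrpl57 had 15.6, 7.76 and 7.88 FPKM with G-1, against 9.505, 5.91 and 5.29 FPKM with vehicle. In reads, its ratio of G-1 to vehicle was 1.65 (1.37 to 1.98) in 6499c4, 1.31 (0.981 to 1.75) in 6419c5 and 1.49 (1.16 to 1.93) in 2838c3, with exact 95% intervals that cover counting error only. The fitted difference of Mrpl57 was 0.50 ± 0.10 (adjusted p = 0.287 in limma on log2 values). Mrps26, a small subunit protein with no bacterial counterpart, had 57.7, 50.6 and 39.7 FPKM with G-1, against 42.3, 39.4 and 31.7 FPKM with vehicle. Its read ratios were 1.36 (1.18 to 1.57), 1.28 (1.08 to 1.53) and 1.25 (1.06 to 1.48), with intervals for counting error only. After the correction for GC content and length, the difference of Mrps26 was 0.19 (adjusted p = 0.503, limma), where it was 0.37 (adjusted p = 0.216) before.

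Mrpl43, with 2 copies of the ETS letters before its start, had 55.9, 40.9 and 48.8 FPKM in the G-1 libraries of 6499c4, 6419c5 and 2838c3, against 43.9, 31.97 and 39.1 FPKM in the vehicle libraries. Mrpl36 had 40.7, 24.4 and 35.5 FPKM with G-1, against 32.8, 20.5 and 29.4 FPKM with vehicle. These 5 members were chosen for a G-1 value above the vehicle value within each line, and over all lines the groups overlapped. Mrpl43 shares exons with Twnk, the mitochondrial DNA helicase, and Mrpl36 with Ndufs6, a respiratory chain subunit, on opposite strands. The 2 members lower with G-1 in every line were Mrps14 and Mrpl1, by little. Mrps14, of the small subunit and of bacterial descent, had 32.4, 32.5 and 29.1 FPKM with G-1, against 34.1, 35.5 and 31.4 FPKM with vehicle (difference -0.10 ± 0.063, adjusted p = 0.621 in limma). Mrpl1, which forms the stalk on the side where spent tRNA leaves in bacterial ribosomes, had 12.2, 12.6 and 8.81 FPKM with G-1, against 14.4, 12.8 and 9.82 FPKM with vehicle.

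**Figure D5:**
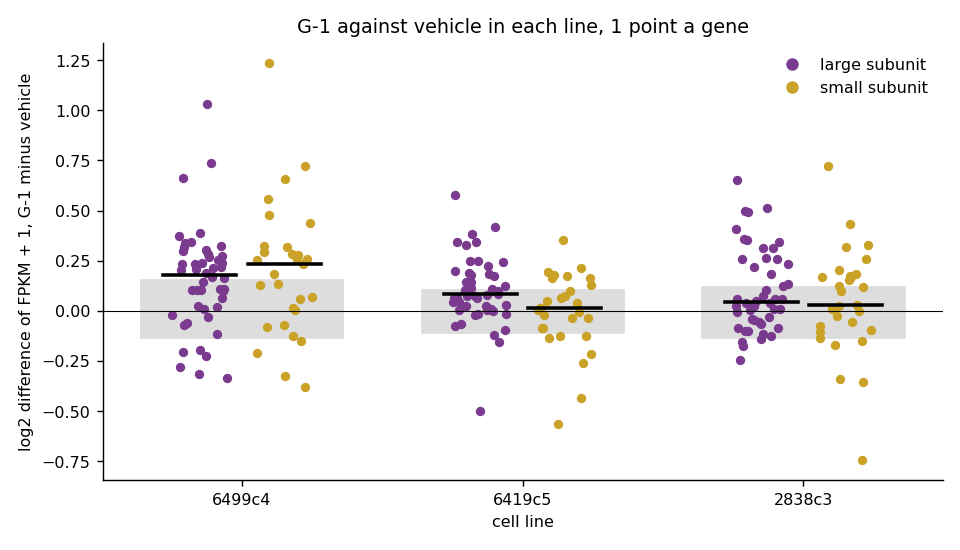
Points are log2 differences of FPKM + 1 between the G-1 and the vehicle library of each line, 1 point a gene, with bars at the subunit medians and grey bands from the lower to the upper quartile of all genes tested. The medians over both subunits are 0.19, 0.065 and 0.041 in 6499c4, 6419c5 and 2838c3.

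Other genes that serve mitochondrial translation were read from lists of known members. For G-1 against vehicle, 0 of the 86 tested genes of 6 lists passed in limma, and 0 passed in limma-voom. In limma, 7 of the 86 had an unadjusted p under 0.05, where 10.1% of all genes did. In 6499c4 against 2838c3, the genes of mitochondrial DNA transcription and upkeep had 8 of 11 higher and none lower (median log2 difference 0.57), beside the 26.6% and 28.9% of all genes given above. Hsd17b10, a part of the enzyme that cuts mitochondrial tRNAs out of their precursors, had 114 and 108 FPKM in the G-1 and vehicle libraries of 6499c4, 46.98 and 48.4 FPKM in 6419c5 and 42.5 and 38.5 FPKM in 2838c3. Tfam, which packs mitochondrial DNA and starts its transcription, had 22.9 and 25.4, 17.6 and 18.5 and 13.2 and 12.9 FPKM in the same libraries, and Polrmt, the RNA polymerase, 12.96 and 11.8, 9.18 and 9.53 and 7.73 and 5.19 FPKM. Tfam was lowest in 2838c3 and highest in 6499c4 with no overlap between lines.

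The lists of assembly, charging and decoding did not all follow. All counts here are for 6499c4 against 2838c3, where 26.6% of all genes were called higher and 28.9% lower. Of 27 tested genes for assembly of the ribosome and modification of its RNA, 8 were higher and 5 lower. Of 15 translation factors, 6 were higher and 3 lower. Of 17 mitochondrial aminoacyl-tRNA synthetases, which charge tRNAs, none was higher and 2 were lower. Of 6 proteins of the ribosome that carry other symbols, 3 were higher and none lower. Ict1, a release factor built into the large subunit, had 50.1 and 45.8 FPKM in 6499c4, 49.3 and 46.5 FPKM in 6419c5 and 25.1 and 19.4 FPKM in 2838c3, below both other lines in 2838c3 like Mrpl54. Of 10 regulators of nuclear genes for mitochondria, 3 were higher and 3 lower. Gabpa, the DNA-binding part of the ETS factor named above, had 25.1 and 27.2 FPKM in 6499c4, 50.4 and 47.1 FPKM in 6419c5 and 30.8 and 38.2 FPKM in 2838c3, an order of lines that differed from that of the members' medians. Esrra, an orphan nuclear receptor, had 18.6 and 14.6, 12.7 and 12.7 and 9.72 and 8.496 FPKM, and Pprc1, a coactivator, 27.6 and 34.8, 36.3 and 41.3 and 52.3 and 57.3 FPKM.

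Beside the families most like it, the mitochondrial ribosome was not alone in the difference between lines. In 6499c4 against 2838c3, 57 of 76 respiratory chain and ATP synthase genes were higher and 2 lower, with a median of 0.54. Of 81 cytosolic ribosomal protein genes, 49 were higher and 5 lower, with a median of 0.30. The shares over all genes were 26.6% higher and 28.9% lower. In 6419c5 against 2838c3 the respiratory chain genes had 27 higher and 10 lower with a median of 0.19. The cytosolic ribosomal protein genes had 28 higher and 17 lower with a median of 0.031, against 26.2% and 25.3% of all genes. After the correction for GC content and length, the medians for 6499c4 against 2838c3 were 0.11 for the mitochondrial ribosome, 0.18 for the respiratory chain and -0.046 for the cytosolic ribosome. For 6419c5 against 2838c3 they were 0.0011, -0.034 and -0.22. Of the 75 respiratory chain genes corrected, 19 were called higher and 21 lower. Among the 81 cytosolic ribosomal protein genes, 14 were called higher and 37 lower. In the same fit, 24.0% of all genes were called higher and 29.6% lower. Over all genes the corrected medians were -0.021 for 6499c4 against 2838c3 and -0.052 for 6419c5 against 2838c3. A difference between these families was not tested.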

How the data were processed

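Gene levels were measured by RNA sequencing of 3 G-1 and 3 vehicle libraries, 1 per line and treatment. The deposited values are FPKM that the authors computed, in 1 table of 24421 symbols. The tool names listed from the submitters' processing notes are STAR and DESeq2. The sources used here do not give their roles, the genome build, the annotation or the strand rule. Kits were RNeasy and NEBNext Ultra, per the labels' protocols. FPKM values move in equal steps within a gene, so whole reads were recovered for 15712 genes above 0 (tolerance 0.01 reads), taking the smallest numbers that gave whole gene lengths, so a divisor shared by few reads can be missed. The authors' library scale was proportional to median-of-ratios size factors of these reads. A count of 0 allows up to 3 reads, or 0.336 to 0.547 RPM. Intervals and floors cover counting error only.

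The 10748 genes averaging 1 FPKM or more were analysed as log2(FPKM + 1) in limma 3.58.1 (R 4.3.3), with a variance trend (2 residual and 5.35 prior degrees of freedom), two-sided, Benjamini-Hochberg adjusted, threshold 0.05. G-1 was compared with vehicle with line as replicate block, since a line gave both libraries, and their deviations from the group means correlated at 0.882, 0.871 and 0.906 in 6499c4, 6419c5 and 2838c3. Lines were compared with treatment as covariate.

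Named members were the 4 highest and 4 lowest by level, up to 5 per direction with the same sign for G-1 in all lines ranked by their smallest difference, up to 4 per line and direction called against both other lines, and Mrps18a, Mrps18b, Mrps18c and Mrpl12. Members and lists were chosen with earlier results of these data known. Other members and list genes named as examples were chosen after their values were seen. Alternatives were a pseudocount of 0.1, no filter, a filter of 5 FPKM, quantile scaling, no variance trend, correction for GC content and length (known for 96.5% of genes), limma-voom on the recovered reads, no block or treatment term, and leaving out each line or library. The correction together with limma-voom was added after seeing the data. Positions of genes and exons are those of GENCODE vM21.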

Additional observations from a re-analysis of the deposited data

How the results depend on the processing

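For G-1 against vehicle, 5 members were called in limma-voom and 1 (Mrpl57) in limma-voom with the correction for GC content and length, against 0 in limma on log2 values and 0 under the other alternatives run. In limma-voom without and with the correction, 169 of 10748 and 48 of 10368 genes were called. Without the replicate block the count of members called was 0 as well, with the median unchanged at 0.072. With the replicate block and the correction the median was 0.030. Leaving out a line gave 0 calls each time and medians of 0.043 to 0.13. No member was called with the block, so leaving it out could not lose a member's call. Over all genes, 3 were called with the block and 0 without it.

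For 6419c5 against 2838c3, the median of 0.19 became 0.0011 with the correction and -0.089 with the correction in limma-voom. For 6499c4 against 2838c3, the median of 0.36 became 0.11 and 0.038. Over all genes the corrected medians were -0.052 and -0.12 for the first comparison and -0.021 and -0.071 for the second. The part of GC content and length in these differences was otherwise not tested. Quantile scaling gave 46 calls and a median of 0.25 for 6499c4 against 6419c5, where 30 and 0.18 stood without it. Of the 10748 genes tested, 4964 were called with quantile scaling and 4836 without it, with medians of 0.039 and 0.0060. The cause was not tested. Without 1 library, calls numbered 28 to 44 for 6419c5 against 2838c3, 38 to 49 for 6499c4 against 2838c3 and 16 to 36 for 6499c4 against 6419c5, with medians of 0.15 to 0.24, 0.27 to 0.41 and 0.15 to 0.20. The calls are 36.4% to 57.1%, 49.4% to 63.6% and 20.8% to 46.8% of the members, against 31.9% to 52.8%, 41.7% to 51.9% and 24.3% to 43.8% of all genes. Without the G-1 library of 6419c5, the first and the third of these counts were at their lowest. The log2 level of the large above the small subunit was 0.075 to 0.36 without 1 line.

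Of 1148 values of named members under alternatives, 1014 kept direction and side of the threshold, 123 lost and 4 gained a call, and 7 changed sign. The values include those of members named for G-1 that were not called in the main fit. For these, keeping the side of the threshold means staying uncalled. With the correction, Mrpl30 for 6499c4 against 2838c3 was at -0.078 (-0.18 in limma-voom) and Mrpl42 for 6419c5 against 2838c3 at -0.045 (-0.18). With it in limma-voom, Mrps18c for 6419c5 against 2838c3 was at -0.083, and Mrps18b and Mrps26 for 6499c4 against 2838c3 at -0.028 and -0.023. With 1 library per line and treatment, a difference between lines in the response to G-1 could not be tested, and members with few reads, Mrpl23 and Mrps36, allow no statement on small changes.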

Other observations

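Some genes around the mitochondrial ribosome set lines apart as clearly as its own proteins. Aurkaip1, a small subunit protein under another symbol, had 42.3 and 38.5 FPKM in the G-1 and vehicle libraries of 6499c4, 70.2 and 64.7 FPKM in 6419c5 and 36.1 and 26.5 FPKM in 2838c3, and it was called higher in 6419c5 than in both other lines. Chchd1, another such protein, had 90.8 and 81.1 FPKM in 6499c4, 54.6 and 49.4 FPKM in 6419c5 and 96.3 and 96.8 FPKM in 2838c3, and was called lower in 6419c5 than in both others. Trmt10c, a part of the mitochondrial enzyme that cuts tRNAs at their 5′ end, had 28.2 and 27.5 FPKM in 6499c4, 56.02 and 47.02 FPKM in 6419c5 and 30.9 and 30.5 FPKM in 2838c3, so both libraries of 6419c5 were the highest. Gfm2, which helps to recycle mitochondrial ribosomes, had 5.47 and 6.26 FPKM in 6499c4, 6.99 and 5.59 FPKM in 6419c5 and 11.7 and 11.1 FPKM in 2838c3. Dhx30, an RNA helicase of the granules where the ribosome is put together, had 18.2 and 19.9 FPKM in 6499c4, 19.96 and 19.6 FPKM in 6419c5 and 30.2 and 30.4 FPKM in 2838c3. Gfm2 and Dhx30 were higher in 2838c3 than in both other lines, where most members that differed were lower in 2838c3.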
